A study of Homo sapiens with 8 samples.

Results

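Insulin-like growth factor (IGF) axis transcripts were followed in HCT116 cells, an established human colorectal carcinoma line, after exposure to histone deacetylase inhibitors. The 9 genes were the receptor genes IGF1R, INSR and IGF2R, the substrate genes IRS1 and IRS2, and the binding protein genes IGFBP2, IGFBP3, IGFBP4 and IGFBP6, out of 19775 genes named by the array's annotation. They were chosen by name: every probe set whose annotation gives exactly 1 symbol equal to one of them was taken, which gave 23 probe sets, and the brightest of them on average, over the 8 arrays, represents its gene. The treated groups received largazole at 20 nM, SAHA at 2 µM or FK228 at 20 nM, and the remaining group received vehicle. All were grown in serum-containing medium, treated for 10 h, and measured on 2 Affymetrix U133 2.0 arrays per group. Largazole is a cyclic depsipeptide with a thioester, SAHA (vorinostat) a hydroxamic acid and FK228 (romidepsin) a bicyclic depsipeptide with a disulfide. The labels do not say whether the 2 arrays of a group came from separate cultures, so the p-values reflect just the variation among these arrays, which may be technical.

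Ligands of this axis bind tyrosine kinase receptors at the cell surface, and the activated receptors phosphorylate insulin receptor substrate (IRS) proteins, which recruit PI3-kinase and start signalling through AKT. Soluble IGF-binding proteins hold the ligands outside the cell, and IGF2R takes IGF2 up for degradation. In colorectal tumours the axis is known for supporting growth and survival.

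Expression is given as the deposited log2 level, on which a difference of 1 is a doubling. Array medians lay between 4.47 and 4.51. Pearson's r between the 2 arrays of a group, taken across probe sets that are not independent replicates, was 0.995 to 0.997. A probe set was tested when its second-highest array reached the median of all values, 4.49, a rule blind to group, which kept 28985 of 54613 probe sets, 13373 genes and 20 of the 23 IGF axis probe sets. Of these 9 genes, 8 were tested and IGFBP4 was not. In this bulk RNA, fewer cells of a type and less RNA per cell cannot be told apart. All 8 epithelial markers on the array passed that filter, though VIL1 stayed near its level, at 4.39 to 4.73. None of the 4 leukocyte markers did (0 of 4). Of 4 liver markers 1 passed the filter level, TTR at 4.80 to 5.14. Of 8 fibroblast and endothelial markers 4 passed, among them COL1A1 at 7.66 to 8.56 on treated arrays and 7.00 to 7.25 on vehicle arrays, while COL1A2, COL3A1, LUM and CDH5 stayed under it. The summed level of that list was 8.74 to 8.96 with largazole, 8.38 to 8.58 with SAHA, 8.34 to 8.47 with FK228 and 8.06 to 8.08 with vehicle (log2 of the linear sum). COL1A1 was the largest part of that sum on every array. The others that passed stayed in narrow ranges over the 8 arrays: DCN at 4.17 to 4.74, PECAM1 at 5.05 to 5.37 and VWF at 4.45 to 5.02. The part of this list in the results below was not tested.

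The promoters of the 5 genes that changed with every compound are shown here because these genes moved under all 3 inhibitors, IRS1 in the opposite direction to the rest. Each sequence is the 250 bases before the RefSeq start (GRCh38.p14, on the gene's strand, 5′ to 3′). Capitals mark GGGCGG in either orientation (the GC box), CACGTG (the E-box), TATAAA or TATATA, and TGTTTTG, a forkhead-type motif. The windows lie at chr7:45921273-45921522 on the minus strand for IGFBP3, chr2:226799821-226800070 on the minus strand for IRS1, chr13:109786584-109786833 on the minus strand for IRS2, chr15:98648289-98648538 on the plus strand for IGF1R and chr6:159968832-159969081 on the plus strand for IGF2R.
IGFBP3: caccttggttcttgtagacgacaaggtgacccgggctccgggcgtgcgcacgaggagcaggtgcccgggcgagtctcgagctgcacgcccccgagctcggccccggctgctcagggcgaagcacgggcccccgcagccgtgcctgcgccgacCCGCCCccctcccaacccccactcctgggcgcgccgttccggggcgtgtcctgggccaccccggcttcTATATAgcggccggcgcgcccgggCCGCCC
IRS1: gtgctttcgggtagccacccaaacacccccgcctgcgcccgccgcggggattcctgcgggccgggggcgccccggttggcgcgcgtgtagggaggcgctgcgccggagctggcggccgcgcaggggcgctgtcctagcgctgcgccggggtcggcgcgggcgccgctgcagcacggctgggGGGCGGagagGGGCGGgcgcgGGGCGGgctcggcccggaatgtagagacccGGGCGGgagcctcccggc
IRS2: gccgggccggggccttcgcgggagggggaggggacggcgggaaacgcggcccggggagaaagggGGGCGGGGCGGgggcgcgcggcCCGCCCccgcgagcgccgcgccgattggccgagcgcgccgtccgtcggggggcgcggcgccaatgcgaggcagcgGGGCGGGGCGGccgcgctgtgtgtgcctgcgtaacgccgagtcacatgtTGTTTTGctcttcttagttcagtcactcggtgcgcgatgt
IGF1R: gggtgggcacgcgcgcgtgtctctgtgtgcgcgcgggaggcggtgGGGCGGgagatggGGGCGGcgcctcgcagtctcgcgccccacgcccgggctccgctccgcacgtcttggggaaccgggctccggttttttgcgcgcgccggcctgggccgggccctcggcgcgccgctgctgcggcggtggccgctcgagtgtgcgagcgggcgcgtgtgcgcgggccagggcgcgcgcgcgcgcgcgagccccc
IGF2R: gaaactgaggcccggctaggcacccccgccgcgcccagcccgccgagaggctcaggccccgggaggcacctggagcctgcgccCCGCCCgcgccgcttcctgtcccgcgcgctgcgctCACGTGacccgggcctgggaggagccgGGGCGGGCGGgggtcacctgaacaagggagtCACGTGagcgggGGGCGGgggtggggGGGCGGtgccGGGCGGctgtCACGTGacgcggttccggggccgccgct

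All 9 genes matched a RefSeq promoter, with 3 starts for IGFBP2 and 11 windows in all. Each of the 9 held at least 1 GC box in a window, the genes with no called change included, and so did 42.6% of the 35116 promoter windows of that length. IGF2R held 6 GC boxes and 3 E-boxes, at -132, -74 and -28 from the start. E-boxes occurred in 6.34% of all windows and in no other of the 9 genes. IGFBP3 had TATATA at -30, a motif found in 3.73% of windows on either strand, and IGFBP4 had TATAAA at -29, found in 10.7%. IRS2 carried TGTTTTG at -40, found in 4.3% of windows, counted in both orientations. Some GC boxes overlap one another, as at -186 and -181 of IRS2. These matches describe the letters of the window only.

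Against vehicle, 5 of the 8 tested genes changed with each of the 3 compounds. IGFBP3, IRS2, IGF1R and IGF2R rose and IRS1 fell, while INSR, IGFBP2 and IGFBP6 were not called. With largazole 4 of 8 rose and 1 of 8 fell, against 21.9% of all tested genes higher and 23.2% lower (limma, adjusted p under 0.05). The same counts stood beside 22.1% higher and 25.2% lower with SAHA, and beside 25.7% higher and 27.0% lower with FK228. Among the genes that rose, the IGFBP3 probe set passed the filter only through the treated arrays, so its call adds no support to these counts. The median difference of the 8 was 0.43 with largazole, 0.54 with SAHA and 0.34 with FK228, beside medians over all tested genes of 0.0018, -0.019 and 0.013 for the same compounds. The 3 comparisons share their vehicle arrays.

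**Figure D1:**
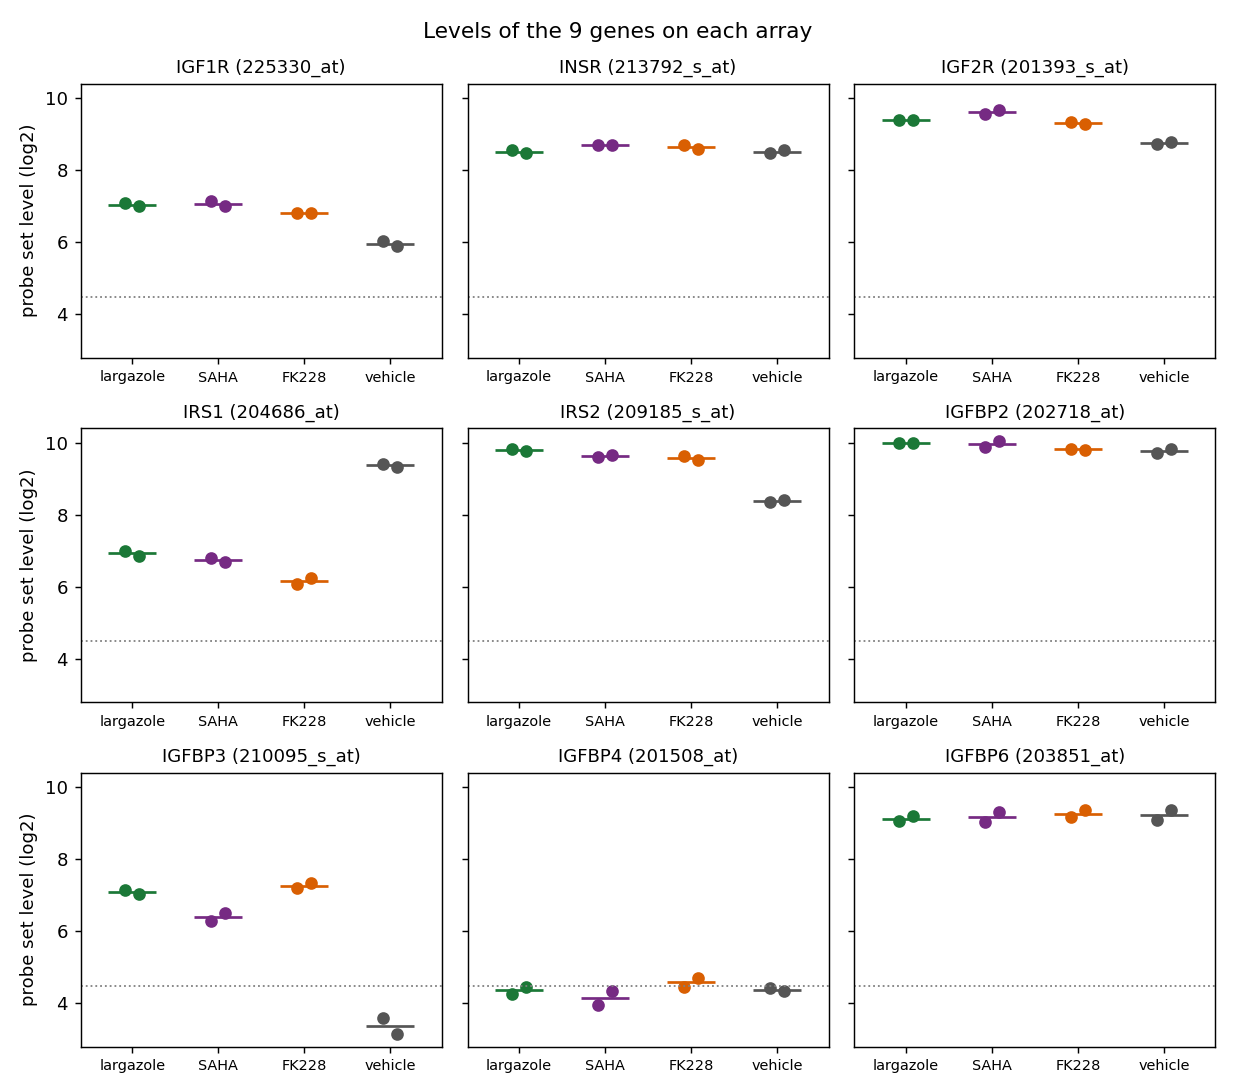
Deposited log2 level (vertical axis) of the probe set standing for each of the 9 genes on the 2 arrays of each group, with the group mean as a line and the filter level of 4.49 dotted. IRS1 lay at 6.09 to 7.01 on the treated arrays and 9.32 to 9.42 on the vehicle arrays, IGFBP3 at 6.28 to 7.33 and 3.13 to 3.58.

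Among the receptors, IGF1R, the tyrosine kinase receptor for IGF1 and IGF2, rose with each compound. Its level was 7.08 and 7.01 with largazole, 7.13 and 7.01 with SAHA, 6.81 and 6.82 with FK228, and 6.05 and 5.88 with vehicle. All 6 treated arrays lay above both vehicle arrays, and the largazole and SAHA arrays overlapped. All 3 IGF1R differences were called. The difference from vehicle was 1.08 ± 0.092 with largazole (SE, n = 2; 2.11-fold, limma adjusted p = 9.43e-05). Here and below, the SE comes from the limma fit, which pools the spread over all 8 arrays, and n counts arrays per group. The IGF1R difference was 1.11 ± 0.092 with SAHA (adjusted p = 7.15e-05) and 0.85 ± 0.092 with FK228 (adjusted p = 0.00017). Other IGF1R probe sets moved less: 203627_at differed by 0.56 with largazole, 0.52 with SAHA and 0.27 with FK228, the last not called (adjusted p = 0.218). For 203628_at, which ran from 3.73 to 4.78 over the 8 arrays, around the filter level, the differences were 0.23, 0.62 and 0.27. Of these only the SAHA difference was called (limma adjusted p = 0.0483). Averaged over all 5 IGF1R probe sets, 2 of them under the filter, the differences were 0.41, 0.47 and 0.41 for largazole, SAHA and FK228, still called.

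IGF2R, the mannose 6-phosphate receptor that also carries newly made enzymes to the lysosome, rose as well. Its level was 9.40 and 9.41 with largazole, 9.57 and 9.69 with SAHA, 9.34 and 9.28 with FK228, and 8.74 and 8.78 with vehicle. Every treated array was above the vehicle arrays, and the order of the group means was SAHA, largazole, FK228, vehicle. The difference was 0.64 ± 0.082 with largazole (SE, n = 2; adjusted p = 0.000619), 0.87 ± 0.082 with SAHA (adjusted p = 0.000128) and 0.55 ± 0.082 with FK228 (adjusted p = 0.000914, all limma). The IGF2R probe set 201392_s_at rose too, by 0.53 with largazole, 0.78 with SAHA and 0.78 with FK228. The only probe set without the _s_at suffix, which marks probes shared between transcripts, was 1569052_at. It differed by 1.00 with largazole, 1.21 with SAHA and 0.89 with FK228. Only its SAHA arrays (4.57 and 4.63) reached the filter level, and its largazole, FK228 and vehicle arrays were all under it. Its calls therefore give no support to those of IGF2R.

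INSR, the insulin receptor, was not called by its brightest probe set. Its probe sets disagreed in call, and with largazole and FK228 also in direction. Levels of 213792_s_at were 8.56 and 8.48 with largazole, 8.70 and 8.71 with SAHA, 8.71 and 8.61 with FK228, and 8.47 and 8.57 with vehicle. The largazole and vehicle arrays overlapped, and the SAHA and FK228 arrays lay above vehicle by small margins. Its difference was -0.0019 with largazole (95% confidence interval -0.20 to 0.20), 0.19 with SAHA (-0.013 to 0.39) and 0.14 with FK228 (-0.061 to 0.34). A second probe set, 226450_at, rose with every compound, by 0.52 with largazole, 0.52 with SAHA and 0.51 with FK228 (limma adjusted p = 0.00424, 0.00388 and 0.00342). Another, 226216_at, fell by 0.29 with largazole (adjusted p = 0.0447) and was not called with SAHA (0.074) or FK228 (-0.037). Probe set 226212_s_at differed by 0.23 with largazole, 0.31 with SAHA and 0.014 with FK228, called with SAHA only (limma adjusted p = 0.0468). For 207851_s_at the differences were -0.0040, 0.18 and -0.14, none called. With largazole and FK228 the direction of INSR depended on the probe set read. With SAHA every INSR probe set was above vehicle on average, though not every one was called.

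**Figure D2:**
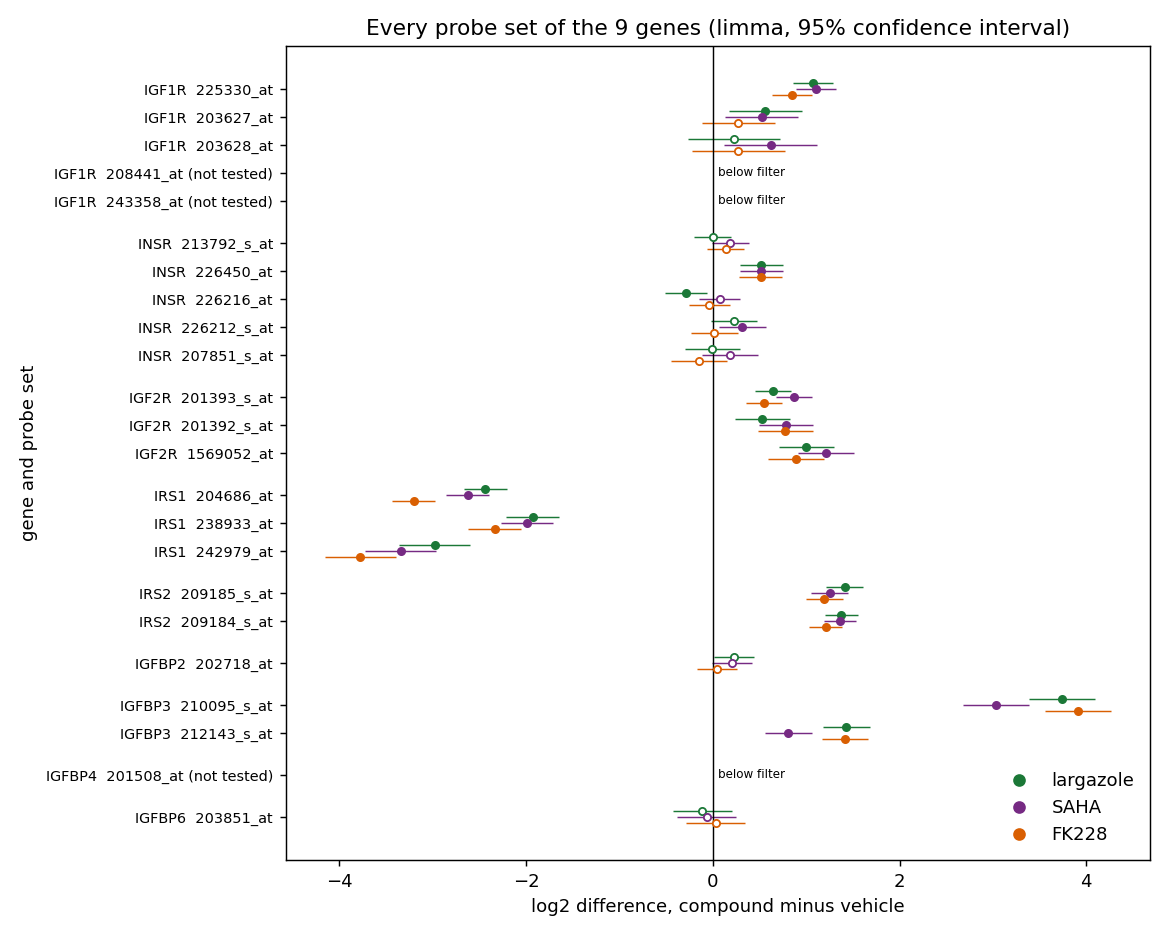
Log2 difference from vehicle (horizontal axis) with its 95% confidence interval for the 20 tested probe sets of 8 genes, by compound, with the 3 untested ones marked as below the filter. Filled points passed the test and open points did not; all 3 IRS1 probe sets lay between -1.93 and -3.77, whereas the INSR probe sets lay between -0.29 and 0.52.

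IRS1, the docking protein that couples IGF1R and the insulin receptor to PI3-kinase, fell with each compound. Its level was 7.01 and 6.86 with largazole, 6.80 and 6.68 with SAHA, 6.09 and 6.25 with FK228, and 9.42 and 9.32 with vehicle. No treated array came near the vehicle arrays, and the FK228 arrays were the lowest. IRS1 fell by 2.44 ± 0.10 with largazole (SE, n = 2; 5.41-fold lower, limma adjusted p = 6.23e-06). It fell by 2.63 ± 0.10 with SAHA (6.18-fold lower, adjusted p = 4.41e-06) and fell by 3.21 ± 0.10 with FK228 (9.22-fold lower, adjusted p = 1.06e-06). Among 13373 tested genes this ranked 31 from the lowest with largazole, 31 with SAHA and 28 with FK228. The other IRS1 probe sets fell too: 238933_at differed by -1.93, -1.99 and -2.34 and 242979_at by -2.98, -3.34 and -3.77 for largazole, SAHA and FK228. For 242979_at all 6 treated arrays, from 3.61 to 4.64, were near or under the filter level. So were the FK228 arrays of 238933_at, at 4.51 and 4.38. Without its vehicle arrays 242979_at would not have passed the filter, so its calls give no support to those of IRS1.

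IRS2, the other widely expressed IRS docking protein, moved the opposite way. Its level was 9.82 and 9.77 with largazole, 9.60 and 9.66 with SAHA, 9.64 and 9.51 with FK228, and 8.35 and 8.41 with vehicle. All treated arrays were above the vehicle arrays, with the largazole arrays highest and the SAHA and FK228 arrays overlapping. IRS2 rose by 1.41 ± 0.085 with largazole (SE, n = 2; 2.67-fold, limma adjusted p = 2.18e-05), 1.25 ± 0.085 with SAHA (adjusted p = 3.1e-05) and 1.19 ± 0.085 with FK228 (adjusted p = 2.16e-05). The second IRS2 probe set, 209184_s_at, gave 1.38, 1.36 and 1.21 for largazole, SAHA and FK228. Both IRS2 probe sets carry the _s_at suffix, so no IRS2 value was left when such probe sets were removed.

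The binding protein genes split into IGFBP3, which rose, and the others, which were not called or not tested. IGFBP3, the main IGF carrier in serum and also a secreted growth inhibitor in many cell cultures, stood at 7.16 and 7.04 with largazole, 6.28 and 6.50 with SAHA, 7.21 and 7.33 with FK228, and 3.58 and 3.13 with vehicle. The vehicle arrays were under the filter level and every treated array was above it. The SAHA arrays were below those of both depsipeptides, at a dose that differs from theirs. IGFBP3 rose with each compound, with fitted differences of 3.74 ± 0.15 with largazole (SE, n = 2; limma adjusted p = 6.06e-06), 3.04 ± 0.15 with SAHA (adjusted p = 1.07e-05) and 3.91 ± 0.15 with FK228 (adjusted p = 2.14e-06). Because the probe set passed the filter only through the treated arrays, these differences do not fix the size of the rise. For the same reason its calls give no support of their own. The other probe set, 212143_s_at, above the filter level on every array and at 4.97 on average with vehicle, rose by 1.43 with largazole, 0.81 with SAHA and 1.42 with FK228 (adjusted p = 5.41e-05, 0.000649 and 2.93e-05). The mean of both probe sets rose by 2.59, 1.92 and 2.66 for the same compounds.

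IGFBP2, a secreted binding protein for both IGFs, was at 9.99 and 10.00 with largazole, 9.89 and 10.06 with SAHA, 9.83 and 9.81 with FK228, and 9.71 and 9.83 with vehicle. Largazole and SAHA arrays lay above vehicle and FK228 arrays overlapped it. The difference was 0.23 with largazole (95% confidence interval 0.012 to 0.44, limma adjusted p = 0.0884), 0.20 with SAHA (-0.012 to 0.42, adjusted p = 0.116) and 0.047 with FK228 (-0.17 to 0.26). The largazole and SAHA differences passed the threshold with an intensity-trended robust prior (adjusted p = 0.0292 and 0.0453).

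IGFBP6, a binding protein with a preference for IGF2, was at 9.06 and 9.19 with largazole, 9.04 and 9.30 with SAHA, 9.16 and 9.37 with FK228, and 9.10 and 9.37 with vehicle. The 4 groups overlapped. The difference was -0.11 with largazole (95% confidence interval -0.43 to 0.20), -0.066 with SAHA (-0.38 to 0.25) and 0.030 with FK228 (-0.29 to 0.35). IGFBP4, a binding protein that is cleaved by the protease PAPPA, was at 4.27 and 4.46 with largazole, 3.94 and 4.33 with SAHA, 4.46 and 4.70 with FK228, and 4.42 and 4.34 with vehicle. Its second-highest array, 4.46, missed the filter level of 4.49. Only 1 of its 8 values was above that level.

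Over all 20 tested probe sets of these genes, 10 were higher and 4 lower with largazole, 12 and 3 with SAHA, and 9 and 3 with FK228. Among all probe sets the share called in either direction was 40.7% with largazole, 43.7% with SAHA and 49.0% with FK228. Some of the 20 passed the filter through the arrays where they were high. These were the treated arrays for 210095_s_at of IGFBP3 and the vehicle arrays for 242979_at of IRS1. For 1569052_at of IGF2R and 203628_at of IGF1R they were the SAHA arrays. Calls of such probe sets add no support to these counts.

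Largazole and FK228, both depsipeptides, were given at the same dose for the same time, and this was the 1 pair of compounds tested against each other. They differed at 1 of the 8 tested genes. IRS1 was higher with largazole than with FK228, by 0.77 ± 0.10 (SE, n = 2; 95% confidence interval 0.54 to 1.00, limma adjusted p = 0.00775). The arrays behind it were 7.01 and 6.86 with largazole and 6.09 and 6.25 with FK228, which do not overlap. The IRS1 probe set 238933_at gave 0.40, which was not called (adjusted p = 0.0882). Its FK228 arrays, at 4.51 and 4.38, lay near or under the filter level. For 242979_at both groups lay near or under the filter level, at 4.64 and 4.34 with largazole and 3.78 and 3.61 with FK228, so its call (0.79, adjusted p = 0.0294) gives no support to that of IRS1. Without largazole replicate 1 the IRS1 difference was 0.70 and its call ended (adjusted p = 0.0739).

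For the remaining genes the difference between largazole and FK228 was bounded but not called. It was 0.23 for IGF1R (95% confidence interval 0.013 to 0.44, adjusted p = 0.173), 0.22 for IRS2 (0.024 to 0.42, adjusted p = 0.154) and 0.18 for IGFBP2 (-0.036 to 0.39). It was 0.091 for IGF2R (-0.10 to 0.28), -0.14 for INSR (-0.34 to 0.059), -0.17 for IGFBP3 (-0.53 to 0.19) and -0.14 for IGFBP6 (-0.46 to 0.17). Of all tested genes, 4.88% were higher with largazole and 4.19% lower. Of the 20 IGF axis probe sets 2 were called, both of IRS1, against 8.23% of all probe sets. In all 2385 probe sets were called, and 3587 with replicate number as a block. Without largazole replicate 1 or 2 the count was 191 or 315, and without FK228 replicate 1 or 2 it was 657 or 725.

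**Figure D3:**
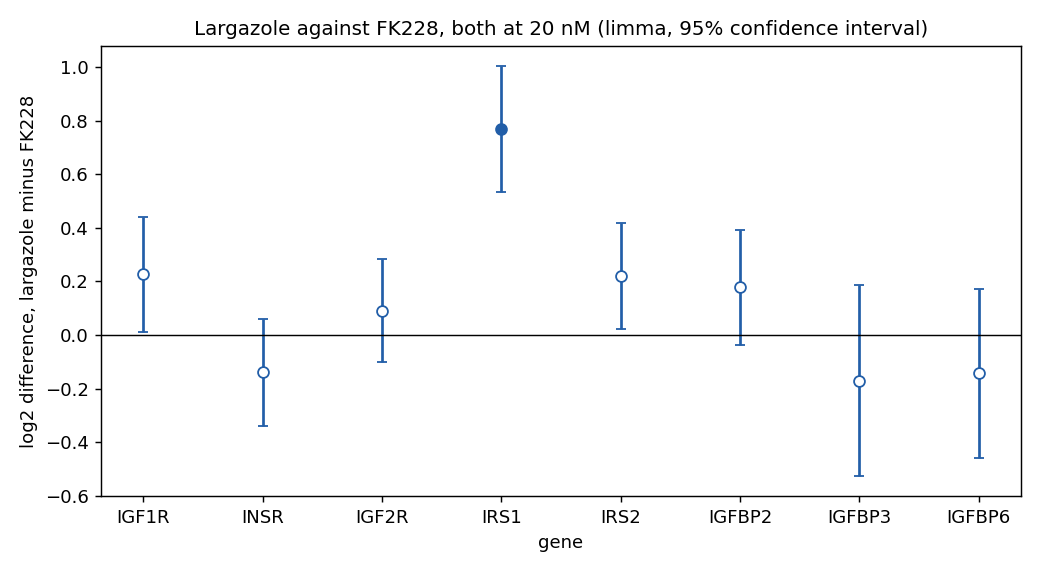
Log2 difference between largazole and FK228 at 20 nM (vertical axis) with its 95% confidence interval for the 8 tested genes. The filled point passed the test: IRS1 at 0.77, while the others lay between -0.17 and 0.23.

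The genes whose 3 differences from vehicle lay nearest to those of a called IGF axis gene were found by the root mean square distance over the 3 compounds, among 13372 other genes. ENPP2, which encodes the lysophosphatidic acid-producing enzyme autotaxin, was nearest to IGFBP3 at a distance of 0.16, with TNFRSF19 (0.26) and CRISPLD2 (0.27) after it, in differences from an IGFBP3 vehicle level under the filter. SMIM3 (0.064), the retinal reductase gene DHRS3 (0.11) and the transporter gene SLC16A9 (0.11) were nearest to IRS1. CSRP2 (0.030), the chromatin organiser gene SATB1 (0.055) and RFESD (0.056) were nearest to IRS2. GLCCI1 (0.022) and SPICE1 (0.037) were among the nearest to IGF1R. RAB33B (0.020), POLR2J4 (0.022) and the pyruvate dehydrogenase kinase gene PDK4 (0.040) were nearest to IGF2R. Distances are in log2 units and describe these arrays only.

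Other genes of the pathway were read from 5 lists of 93 genes, of which 77 were tested. With largazole 26 of 77 rose and 15 fell, with SAHA 24 rose and 19 fell, and with FK228 27 rose and 19 fell. As shares of the 77 these were 33.8% higher and 19.5% lower with largazole, 31.2% and 24.7% with SAHA, and 35.1% and 24.7% with FK228. Over all tested genes the shares were 21.9% and 23.2%, 22.1% and 25.2%, and 25.7% and 27.0% for the same compounds. Their medians were 0.074, 0.11 and 0.099 for largazole, SAHA and FK228.

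Of 10 tested genes for ligands, further binding proteins and their processing, 1 rose with each compound, and 2 fell with largazole, 3 with SAHA and 3 with FK228. The share higher was 10% with each compound and the share lower 20% to 30%, against 21.9% to 25.7% and 23.2% to 27.0% over all tested genes. STC1, a stanniocalcin that inhibits the binding protein protease PAPPA, rose by 2.31 ± 0.16 with largazole (SE, n = 2), 2.00 with SAHA and 2.71 with FK228. Its vehicle arrays, at 4.34 and 3.77, were under the filter level, which STC1 passed only through the treated arrays. These differences therefore do not fix the size of the rise, and their calls give no support of their own. With the mean of its probe sets the differences were 1.52 with largazole, 1.18 with SAHA and 1.83 with FK228. IGF2BP3, an RNA-binding protein named for its IGF2 mRNA target, fell, with differences of -1.38 ± 0.10 with largazole, -1.44 with SAHA and -2.67 with FK228. Its relative IGF2BP2 fell too (-0.90, -1.07 and -1.32 for the same compounds). With the mean of a gene's probe sets IGF2BP3 was at -1.11, -1.02 and -2.19 and IGF2BP2 at -0.66, -0.74 and -1.01, still called. IGFBP1, IGFBPL1, IGFALS, INS and PAPPA did not reach the filter level. IGF1 reached it and was not called with any of the 3 compounds. Once _x_at and _s_at probe sets were removed, 1, 2 and 2 genes of this list were called for largazole, SAHA and FK228, with fewer to test.

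Of 18 tested adaptors and inhibitors that act at the receptors, 9 rose and 5 fell with largazole, 7 rose and 7 fell with SAHA, and 6 rose and 5 fell with FK228. The share higher was 50% with largazole, 38.9% with SAHA and 33.3% with FK228, against 21.9%, 22.1% and 25.7% over all tested genes. The share lower was 27.8%, 38.9% and 27.8%, against 23.2%, 25.2% and 27.0%. GRB14, an adaptor that inhibits the insulin receptor, rose by 1.03 ± 0.089 with largazole (SE, n = 2), 1.03 with SAHA and 0.93 with FK228. PTPN1, a phosphatase of both receptor kinases, rose by 0.72, 0.99 and 1.18 for the same compounds, and ENPP1, an inhibitor of the insulin receptor, by 0.91, 0.94 and 0.95. SOS2, a RAS exchange factor, fell by 1.04 with largazole, fell by 1.00 with SAHA and fell by 1.48 with FK228, and so did SOCS2, a cytokine signalling suppressor (-0.79, -0.84 and -0.96). SOCS1, another such suppressor, rose by 0.99 ± 0.30 with largazole (limma adjusted p = 0.031). It differed by 0.60 with SAHA (adjusted p = 0.145) and 0.55 with FK228 (adjusted p = 0.17), which were called when replicate number was a block (adjusted p = 0.0206 and 0.0263). Removing largazole replicate 2 ended the SOCS1 call with largazole (0.53, adjusted p = 0.154). Removing either vehicle array ended it too (0.85, adjusted p = 0.143 without the first, and 1.14, adjusted p = 0.0654 without the second). With the mean of a gene's probe sets PTPN1 was at 0.22, 0.35 and 0.41 for largazole, SAHA and FK228, still called. ENPP1 was at 0.56, 0.54 and 0.52 and SOCS2 at -0.54, -0.54 and -0.63 for the same compounds, also still called. With that mean, 9 genes of this list were called with largazole and 9 with SAHA.

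Of 15 tested PI3-kinase and AKT genes, 4 rose and 4 fell with largazole, 4 rose and 5 fell with SAHA, and 5 rose and 6 fell with FK228. The share higher was 26.7% to 33.3% and the share lower 26.7% to 40%, against 21.9% to 25.7% and 23.2% to 27.0% over all tested genes. PDPK1, the kinase that phosphorylates AKT in its activation loop, rose by 0.81 ± 0.084 with largazole (SE, n = 2), 1.15 with SAHA and 1.49 with FK228. The inositol lipid phosphatases moved in different directions: INPP4A rose (1.03, 1.02 and 1.20 for largazole, SAHA and FK228), whereas INPP4B (-0.93, -1.17 and -1.64) and INPPL1 (-1.04, -1.21 and -0.99) fell. TRIB3, a pseudokinase that binds AKT, also fell (-1.16, -1.22 and -1.31). With the mean of a gene's probe sets PDPK1 was at 0.41, 0.59 and 0.79 for largazole, SAHA and FK228. INPP4A was at 0.56, 0.72 and 0.77 and TRIB3 at -0.82, -0.90 and -0.88 for the same compounds, all called.

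Of 21 tested mTOR branch genes, 6 rose and 4 fell with largazole, 6 rose and 4 fell with SAHA, and 8 rose and 5 fell with FK228. The share higher was 28.6% to 38.1% and the share lower 19% to 23.8%, against 21.9% to 25.7% and 23.2% to 27.0% over all tested genes. SESN3, a sestrin, rose by 1.87 ± 0.17 with largazole (SE, n = 2), 1.78 with SAHA and 1.66 with FK228, and DEPTOR, which binds and inhibits mTOR, by 1.38, 1.68 and 1.64. With the mean of a gene's probe sets SESN3 was at 0.96, 0.99 and 0.91 and DEPTOR at 0.64, 0.81 and 0.87, still called. MLST8, a subunit of both mTOR complexes, fell (-0.66, -0.79 and -0.76), as did AKT1S1, an AKT substrate bound to mTOR (-0.55, -0.93 and -0.87). With the mean of its probe sets AKT1S1 was at -0.37, -0.67 and -0.64, still called. The largazole call of AKT1S1 ended when either largazole array was removed (adjusted p = 0.0709 without the first and 0.0583 without the second), and likewise for either vehicle array (0.0718 and 0.0531).

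Of 13 tested FOXO and GSK3 branch genes, 6 rose with largazole, 6 with SAHA and 7 with FK228, and 0 fell with any of them. The share higher was 46.2% with largazole, 46.2% with SAHA and 53.8% with FK228, against 21.9%, 22.1% and 25.7% over all tested genes, of which 23.2%, 25.2% and 27.0% were lower. SGK1, an AKT-related kinase, rose by 2.31 ± 0.083 with largazole (SE, n = 2), 2.01 with SAHA and 2.26 with FK228. FOXO1, a forkhead factor that AKT keeps out of the nucleus, rose by 0.93, 1.07 and 0.77, its relative FOXO6 by 0.65, 0.63 and 1.00, and the repressor BCL6, a known FOXO target, by 1.00, 0.99 and 0.97. With the mean of its probe sets FOXO1 was at 0.56 with largazole and 0.63 with SAHA, still called. The medians of this list were 0.29, 0.28 and 0.27 for largazole, SAHA and FK228. Without vehicle replicate 1, 4 genes of it were called with FK228.

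**Figure D4:**
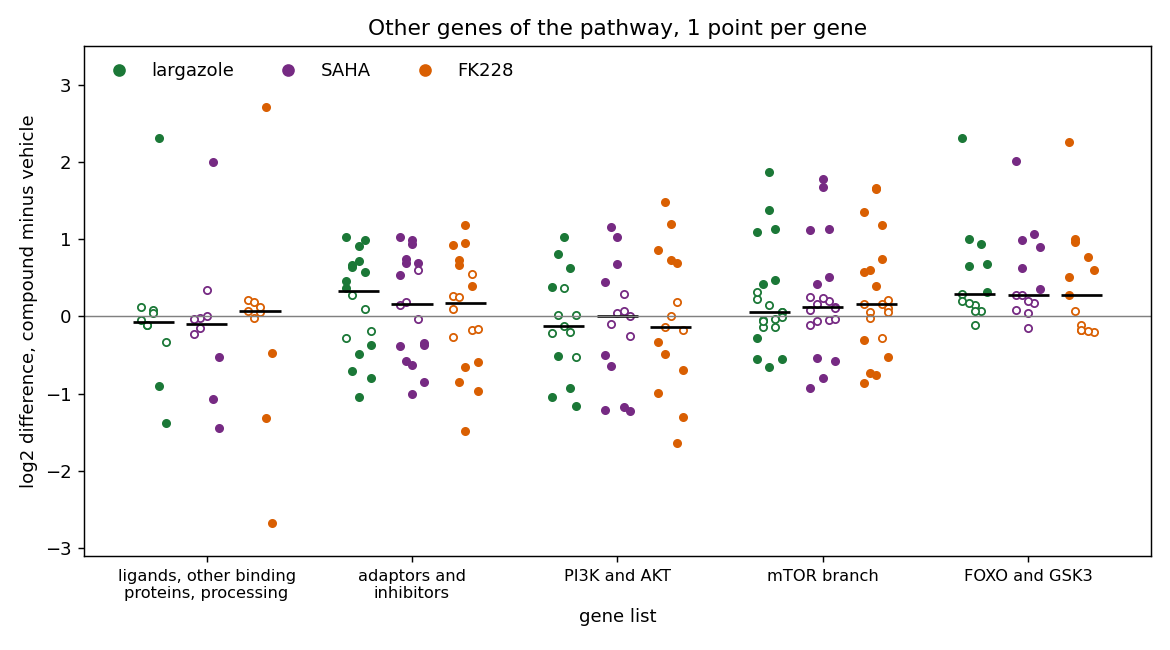
Log2 difference from vehicle (vertical axis) of the 77 tested genes in the 5 pathway lists, 1 point per gene and compound, filled where the test was passed, with the list median as a bar. The FOXO and GSK3 list, with medians of 0.29, 0.28 and 0.27 for largazole, SAHA and FK228, had no filled point under 0.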

How the data were processed

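RNA from 8 HCT116 samples was measured on Affymetrix arrays, 2 per group. The deposited table holds log2 levels per probe set, made by the authors. Per the submitters' processing notes, the tools used included affy, RMA and limma, with neither role nor version stated; the exact steps are not given in the sources used here. No scanner files were used here. Of 54613 probe sets, 41091 have exactly 1 symbol, 1801 several and 11721 none. Of those with 1 symbol, 41037 matched RefSeq by gene ID and 0 symbols changed. From these values limma 3.58.1 in R 4.3.3 was fitted over all arrays with 1 coefficient per group (4 residual and 3.69 prior degrees of freedom), with Benjamini-Hochberg adjustment over the 28985 tested probe sets of each comparison and a threshold of 0.05. The fit was tested on simulated data. The number of arrays limits precision: the median half-width of a 95% confidence interval was 0.26 on the log2 scale. With 2 arrays per side, the smallest p of an exact permutation test is 0.333, so none was run.

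The members and lists were chosen with earlier results of these data known. Genes named from a pathway list are its 2 highest and 2 lowest called genes per compound, and the 3 nearest genes are given for each member called with every compound, except 1 that is not reported here. The promoter motifs were chosen after the sequences were seen. COL1A1, VIL1, TTR, IGF1 and the list genes under the filter were named after their values were seen. SAHA, at another dose, was not tested against the other compounds. The replicate numbers come from the sample titles. Same-numbered arrays deviated together from their group means in every pair of groups (r = 0.13 to 0.27 over 28985 probe sets), so a replicate block was fitted as an alternative. Other alternatives were no filter, a stricter filter (6.87), an intensity-trended robust prior, array weights, equal ribosomal protein medians, a further quantile normalization, removal of _x_at and _s_at probe sets, the mean of a gene's probe sets, the 4 arrays of a pair alone, and each array left out. Figures were drawn with matplotlib 3.10.9 in Python 3.11.15.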

Additional observations from a re-analysis of the deposited data

How the results depend on the processing

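The changes of IGF1R, IGF2R, IRS1, IRS2 and IGFBP3 against vehicle kept their direction and their call under every alternative that gave them a value. Without _x_at and _s_at probe sets IRS2 and IGFBP3 had none. There IGF2R was read from 1569052_at alone, of which only the SAHA arrays reached the filter level. The replicate block changed the calls of SOCS1 with SAHA and FK228 and no other call among the 8 genes and the pathway genes named. A count of probe sets was not made with the mean of a gene's probe sets. The cause of the differences below was not tested, other than fewer probe sets or arrays in the fit.

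INSR with largazole was at 0.037 after a further quantile normalization, 0.52 (called) without _x_at and _s_at probe sets and 0.090 with the mean of its probe sets, and at -0.051 to 0.047 with an array left out. Between largazole and FK228, INSR was at 0.0062 without _x_at and _s_at probe sets and IGF2R at -0.015 with the mean of its probe sets. With an array left out, IGFBP6 ran from -0.24 to 0.019 with largazole, -0.20 to 0.066 with SAHA and -0.10 to 0.16 with FK228, and IGFBP2 from -0.014 to 0.11 with FK228. Gained calls were those of IGFBP2 with largazole under the stricter filter, the trended robust prior and the mean of all probe sets (limma adjusted p = 0.0382, 0.0292 and 0.0476) and with SAHA under that prior (0.0453). IGFBP2 has a single probe set, and its difference stayed at 0.23 with largazole and 0.20 with SAHA in those fits, so only its p-value moved. INSR gained calls without _x_at and _s_at probe sets with SAHA (0.52, adjusted p = 0.00436) and FK228 (0.51, 0.00382), and with the mean of its probe sets with SAHA (0.25, 0.0143). Probe sets called without _x_at and _s_at, where fewer are tested, numbered 7125 with largazole, 7612 with SAHA, 8592 with FK228 and 1359 between largazole and FK228. For largazole against FK228 the count was 2385, and 1058 with no filter, 3741 with the trended robust prior, 3587 with the replicate block, 1240 with 4 arrays alone and 191 to 1991 with an array left out, and 0 to 1 of the 8 genes was called in those fits. A log2 difference under about 0.26 is within the usual confidence interval of these arrays.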
